A study of Caenorhabditis elegans with 34 samples.

Results

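The genes described here are the 2 large families of conjugating enzymes of Caenorhabditis elegans, the UDP-glucuronosyltransferases (ugt) and the glutathione S-transferases (gst, with the omega class gsto and the kappa class gstk). Members were taken by their WormBase symbol and kept when at least 5 counts were present in at least 26 of 34 libraries, a choice that used no difference between groups. The counts held 67 ugt genes, of which 59 were kept, and 49 gst genes, of which 36 were kept, which gives 95 members among 14245 genes kept in all. The 8 ugt and 13 gst genes that were not kept had between 40 and 313 counts summed over all libraries. The members just inside the limit were ugt-63 (26 libraries), gst-31 and ugt-8 (27 each), and just outside it were gsto-2 and ugt-37 (25 each).

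UDP-glucuronosyltransferases attach a sugar from a UDP-sugar donor to small lipophilic molecules, and glutathione S-transferases attach glutathione to electrophiles, including products of lipid peroxidation. Both reactions make foreign or harmful compounds more soluble before they are exported, and they form the second phase of detoxification after oxidation by cytochromes P450 and related enzymes. In worms much of this chemistry is carried out in the intestine, and gst-4 is a widely used reporter gene of the stress response factor SKN-1.

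All animals carried the temperature-sensitive sterile allele spe-9(hc88), were grown at 25 °C and were sorted on day 5 in a microfluidic device, which kept those in the top or bottom 10% of fluorescence. Brightness was read from a GFP reporter under the promoter of a microRNA gene or from red autofluorescence in animals lacking a reporter. A high and a low library came from each of 6 sorts of lin-4p::GFP, 4 sorts of mir-243p::GFP, 4 sorts of mir-240/786p::GFP and 3 sorts by autofluorescence. The predicted long-lived groups were lin-4p::GFP high, mir-243p::GFP high, mir-240/786p::GFP low and autofluorescence low, and the opposite groups were predicted short-lived, which gives 17 libraries of each kind in 8 groups. RNA came from pools of whole animals, and the reporters are active in only some tissues (posterior intestine for lin-4p::GFP, intestine for mir-243p::GFP, spermatheca for mir-240/786p::GFP). Lower RNA from fewer cells of a type and lower RNA per cell therefore cannot be told apart in any value below.

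Libraries held 15.8 to 26.1 M counts (M, 1000000), so that 3 counts correspond to 0.115 to 0.190 counts per M (CPM). In the GFP strains gfp RNA was higher in the high than in the low group without overlap (489 to 1830 against 188 to 394 CPM for lin-4p::GFP), and the animals without a reporter had 0 to 16 gfp counts. Sorts 1 and 2 of lin-4p::GFP stood apart from sorts 3 to 6 in several members, and results that change without them are given beside their values. Tissue markers were counted in the pooled test described below, which called 19% of all genes higher and 21.6% lower (40.6% in all). Of 10 intestine markers 5 were called higher in predicted long-lived animals and none lower. Of the other 5, elt-2 (log2 fold change 0.78), pept-1 (0.25) and ifb-2 (0.03) had positive values, and mtl-2 (−0.35) and act-5 (−0.38) negative ones. The summed intestine level was 1057 to 2833 CPM in the long-lived and 185 to 1415 CPM in the short-lived libraries. Most of this sum came from asp-1 (means of 1074 and 321 CPM) and cpr-6 (455 and 123 CPM). Of 10 germline markers 4 were higher, with summed levels of 3759 to 9415 against 2214 to 7222 CPM, and of 5 epidermal markers 3 were lower, with summed levels of 137 to 354 against 144 to 347 CPM. All 10 germline markers had positive log2 fold changes, from 0.40 (oma-1) to 0.80 (oma-2). At an adjusted p under 0.05 in this test all 10 were higher, where 34.7% of all genes were. Of 8 muscle markers 2 were higher and 1 lower (738 to 1664 against 852 to 1672 CPM), of 7 pharynx markers 1 was higher and 2 lower (32.2 to 82.8 against 32.6 to 83.6 CPM), and of 8 neuron markers 3 were lower (323 to 3983 against 409 to 3877 CPM). The largest part of the muscle sum was act-4, the marker called lower (means of 383 and 786 CPM, log2 −1.03). The median log2 fold change of the 8 muscle markers was 0.59. Most of the neuron sum was unc-119 (means of 747 and 942 CPM), and the sum differed between strains. Its long-lived and short-lived group means were 352 and 488 CPM in animals lacking a reporter and 388 and 478 CPM in lin-4p::GFP. They were 626 and 1053 CPM in mir-240/786p::GFP and 3205 and 3730 CPM in mir-243p::GFP. None of the markers tested was at 0 in either class, and the part of these tissues in the results was not tested.

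Predicted long-lived and short-lived animals were first compared over all biomarkers. Among the ugt genes, 20 rose and 8 fell in predicted long-lived animals and 31 did not pass the test (edgeR quasi-likelihood test, adjusted p under 0.0001, the threshold of the study). These 28 called genes are 47.5% of the ugt family, where 40.6% of all genes were called, and the shares by direction were 33.9% higher and 13.6% lower, against 19% and 21.6% of all genes. The median log2 fold change (predicted long-lived over short-lived) was 0.58 over the ugt genes and −0.01 over all genes. Among the gst genes, 11 rose, 3 fell and 22 did not pass, so that 38.9% were called, and the median was 0.11. With library totals in place of TMM scaling the gst split was 10 higher and 1 lower, and the share of all genes called in that fit was not computed. At an adjusted p under 0.05, 47 ugt genes (31 higher, 16 lower) and 28 gst genes (17 higher, 11 lower) passed, where 70.2% of all genes did (34.7% higher, 35.6% lower). Both families thus contained genes that rose and genes that fell.

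**Figure D1:**
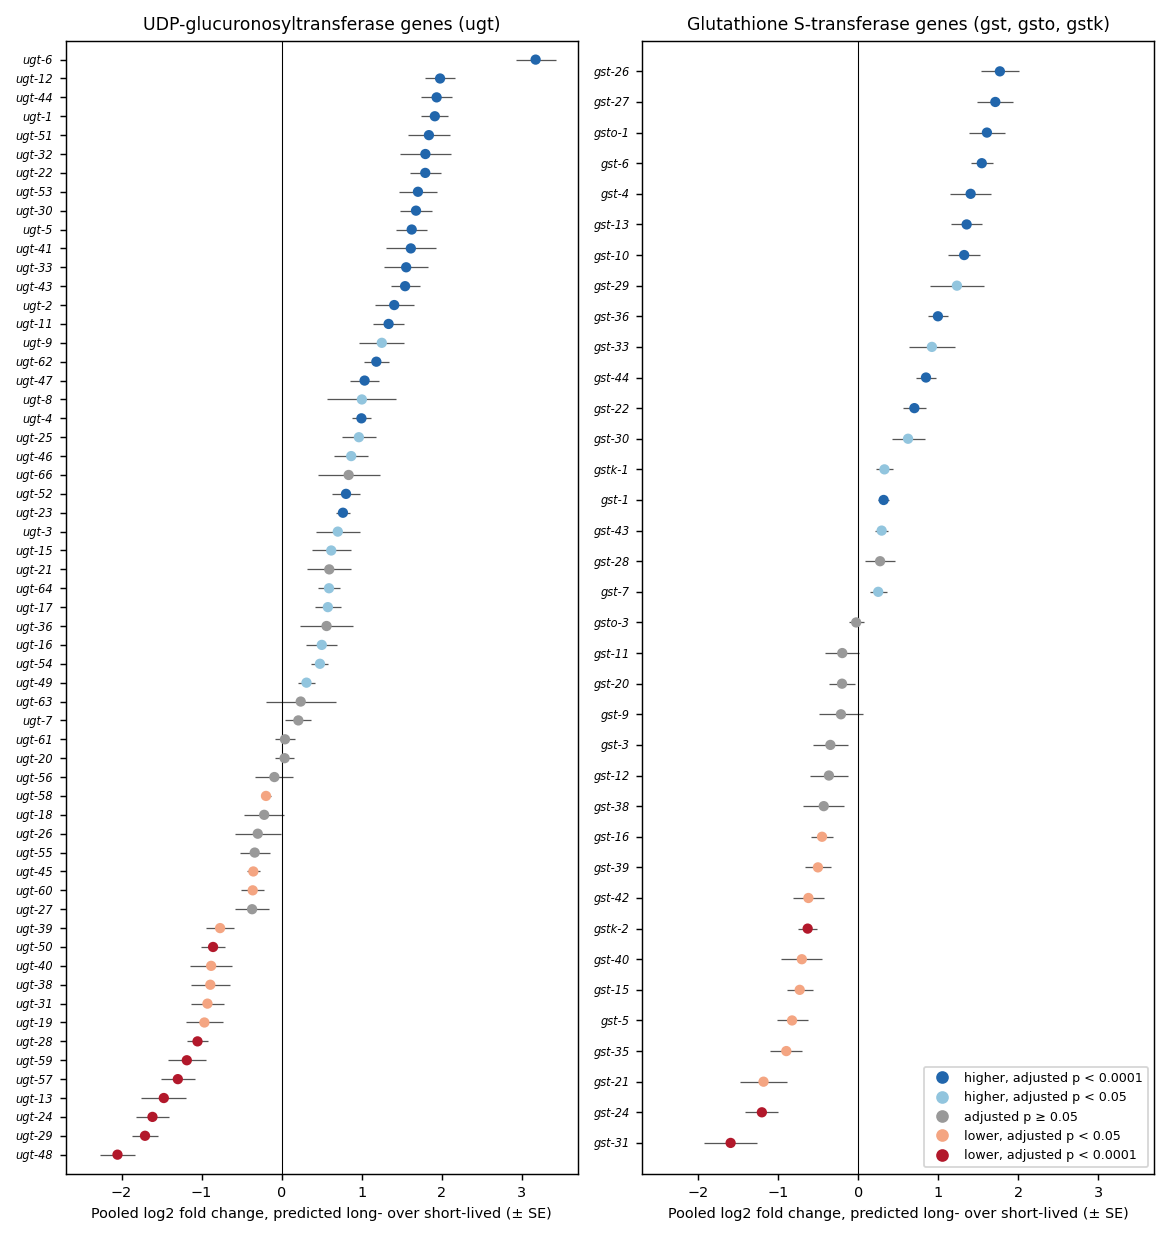
Pooled log2 fold change of each of the 59 ugt (left) and 36 gst, gsto and gstk genes (right), predicted long-lived over short-lived, with standard errors as bars and colour giving the direction and the adjusted p of the edgeR test. The ugt genes range from −2.05 (ugt-48) to 3.17 (ugt-6) and the gst genes from −1.59 (gst-31) to 1.77 (gst-26).

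The largest change of either family was that of ugt-6 (WBGene00013904), a gene of 8 exons on chromosome V (12795481 to 12798224, minus strand, WBcel235). In lin-4p::GFP its level was 1.65, 5.33 and 15.7 CPM (lowest, median, highest of 6) in high and 0.442, 0.871 and 1.69 CPM in low libraries. In mir-243p::GFP it was 6.67, 4.5, 4.79 and 5.35 CPM in high and 0.537, 0.753, 1.15 and 0.700 CPM in low libraries. In mir-240/786p::GFP it was 5.86, 6.46, 5.06 and 7.20 CPM in low and 0.717, 0.136, 0.246 and 0.409 CPM in high libraries. The long-lived library was thus the higher of the pair in 17 of 17 sorts, and the groups met only in lin-4p::GFP, where high sort 4 fell just under low sort 1. In autofluorescence the 3 low libraries had 4.67, 7.85 and 6.38 CPM and the 3 high libraries 0.818, 0.471 and 0.288 CPM. The pooled difference was 9.02-fold (log2 3.17, SE 0.25, edgeR adjusted p = 1.28e-12). In a fit to all 34 libraries with a separate difference for each biomarker, ugt-6 was called in 3 of the 4 biomarkers.

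ugt-44 (WBGene00008486, chromosome IV, 10469741 to 10471899) was expressed at 13.3 to 30.9 CPM in all 17 long-lived libraries and at 1.57 to 12.3 CPM in all 17 short-lived libraries. It was the single ugt gene whose long-lived and short-lived libraries did not overlap at all, a separation seen in 2.13% of all genes. The pooled difference was 3.83-fold (log2 1.94, SE 0.19, edgeR adjusted p = 2.00e-10). Its neighbour on the same chromosome, ugt-43, also rose (log2 1.54, adjusted p = 5.29e-09).

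ugt-12 (WBGene00020592, chromosome V, 4887165 to 4889629) had a median of 11.6 CPM in long-lived (5.82 to 41.5) and 3.29 CPM in short-lived libraries (1.10 to 5.91). The highest values, 41.5 and 32.6 CPM, came from lin-4p::GFP high sorts 1 and 2, and only lin-4p::GFP high sort 4 fell within the short-lived range. ugt-1 (WBGene00007072, chromosome V, 10395663 to 10397820) had medians of 8.35 (4.85 to 19.2) and 2.51 CPM (1.19 to 4.94) and was higher in 17 of 17 sorts. The pooled log2 differences were 1.98 (SE 0.19, edgeR adjusted p = 8.10e-11) for ugt-12 and 1.91 (SE 0.17, adjusted p = 1.53e-11) for ugt-1. Within each biomarker ugt-1 did not overlap between groups, whereas ugt-12 overlapped in lin-4p::GFP.

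ugt-22 (WBGene00007455, chromosome IV, 13639260 to 13644567), which is known for changing the sensitivity of worms to the anthelmintic albendazole, was measured at 11.3, 17.7 and 26.8 CPM (lowest, median, highest of 6) in lin-4p::GFP high and 4.75, 6.25 and 7.68 CPM in low libraries. In mir-240/786p::GFP it was at 9.66, 15.8, 9.94 and 11.8 CPM in low and 2.25, 1.18, 0.935 and 2.81 CPM in high libraries. The groups were apart in all 4 biomarkers, and the pooled difference was 3.47-fold (log2 1.79, SE 0.19, edgeR adjusted p = 7.05e-10). Its exons share bases with srz-29 on the other strand, and whether the counting used strand is not given in the sources used here.

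ugt-51 had a median of 7.97 CPM in long-lived and 2.05 CPM in short-lived libraries (log2 1.84, SE 0.27, edgeR adjusted p = 2.67e-07) and was higher in 17 of 17 sorts. ugt-32 was near the floor, with medians of 1.05 and 0.390 CPM, and was higher in 13 of 17 sorts (log2 1.80, SE 0.32, adjusted p = 9.60e-06). This call was lost with the sort as a block (adjusted p = 0.000179) and without lin-4p::GFP sorts 1 and 2 (adjusted p = 0.000166). All 20 ugt genes called higher had a positive log2 fold change in each of the 4 biomarkers. The call used these same libraries, so this agreement is not independent of it, and the share among all genes called higher was not computed. Of these 20 ugt genes 10 were higher in 17 of 17 sorts. Over all 59 ugt genes, called or not, 11 (18.6%) were, where 12.5% of all genes were. The 20 called genes spanned log2 fold changes of 0.76 to 3.17.

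The ugt genes that fell were led by ugt-48 and ugt-29. ugt-29 (WBGene00021709, chromosome V, 696524 to 699589, minus strand) was the ugt gene with the highest level per length, 26.2 CPM per kb over all libraries. It was at 14, 19.1 and 52.7 CPM (lowest, median, highest of 6) in lin-4p::GFP high and 45.1, 61.2 and 105 CPM in low libraries. In mir-240/786p::GFP the 4 low libraries had 23.9, 23.4, 25.3 and 24 CPM, within a narrow range, and the 4 high libraries 138, 92.7, 137 and 87.5 CPM. In autofluorescence the low libraries had 21.1, 17.9 and 25.1 CPM and the high libraries 74.4, 65.8 and 129 CPM. The long-lived library was lower in 17 of 17 sorts, and the 1 overlap was lin-4p::GFP high sort 1, at 52.7 CPM, with the lowest low libraries. Short-lived animals had 3.27-fold more ugt-29 RNA (log2 −1.71, SE 0.16, edgeR adjusted p = 6.36e-11).

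ugt-48 (WBGene00015965, chromosome V, 5545669 to 5548062) showed the largest decrease of the family. It was at 1.96, 4.41 and 10.4 CPM (lowest, median, highest of 6) in lin-4p::GFP high and 11.4, 14.9 and 44.3 CPM in low libraries, and at 8.11, 6.50, 10.3 and 10.2 CPM in mir-240/786p::GFP low against 81.5, 57.4, 78.0 and 57.4 CPM in high libraries. The groups were apart in each biomarker, and the widest gap was that of mir-240/786p::GFP. RNA of ugt-48 was 4.15-fold higher in short-lived animals (log2 −2.05, SE 0.21, edgeR adjusted p = 4.30e-10), and its exons overlap those of cft-1 on the other strand.

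**Figure D2:**
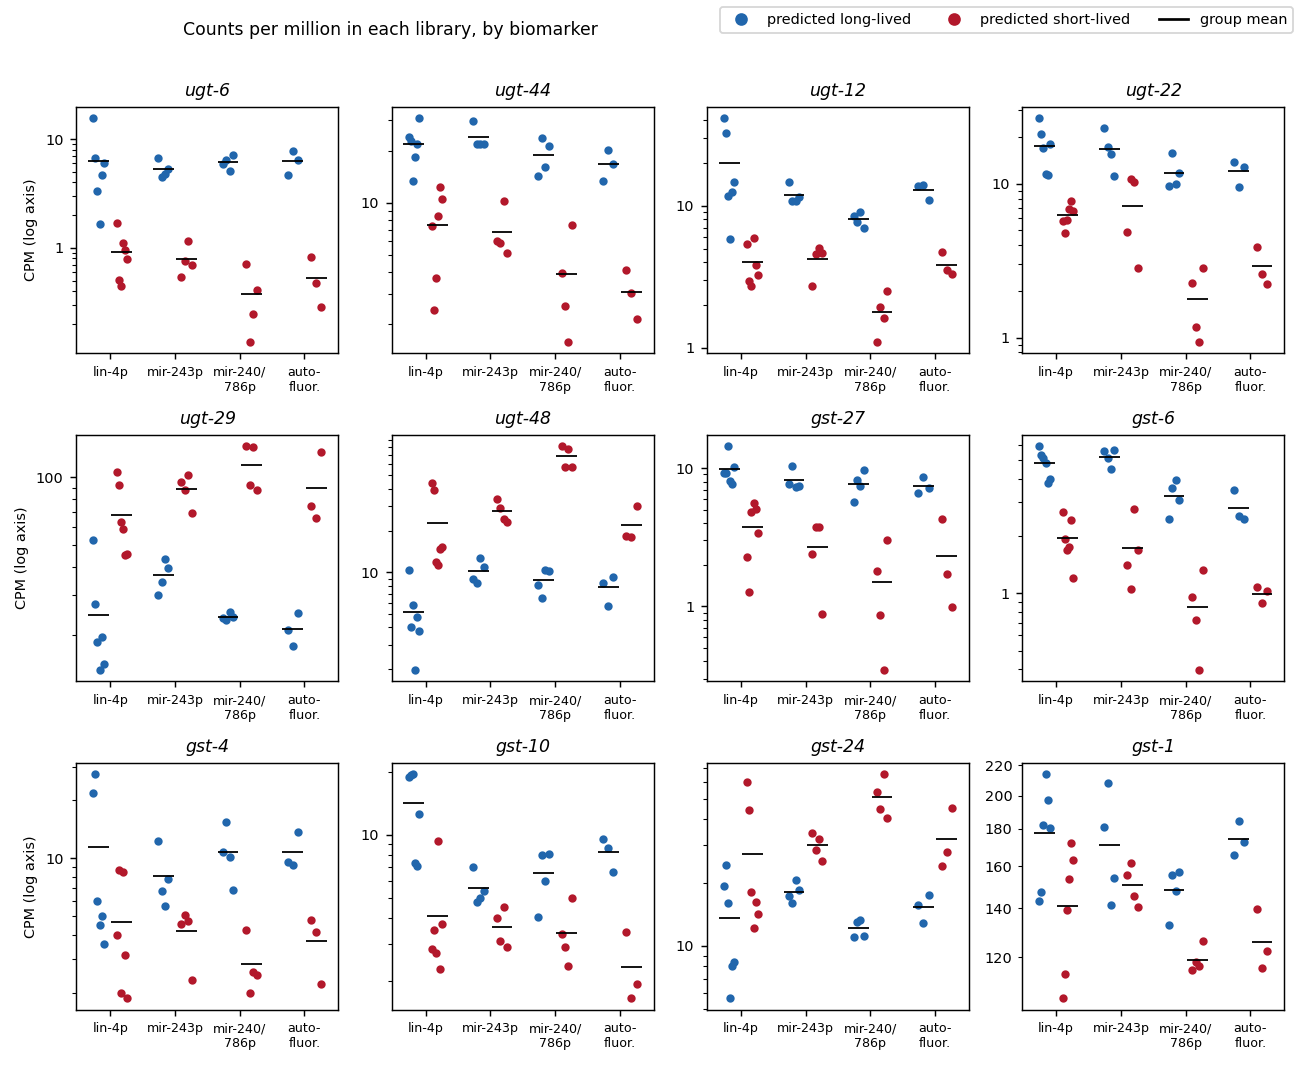
CPM of 12 ugt and gst genes in each of the 34 libraries (log axis), by biomarker, with predicted long-lived libraries in blue, predicted short-lived in red and the group mean as a line. All long-lived values of ugt-44 (13.3 CPM or more) and of gst-27 (5.66 CPM or more) lie above all short-lived values, whereas the values of gst-1 overlap in lin-4p::GFP and mir-243p::GFP.

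ugt-24, ugt-13 and ugt-57 were also lower in 17 of 17 sorts. Their medians in long-lived and short-lived libraries were 3.95 and 13.1 CPM for ugt-24 (log2 −1.61, SE 0.21, edgeR adjusted p = 3.92e-08), 1.31 and 3.13 CPM for ugt-13 (log2 −1.47, SE 0.28, adjusted p = 2.33e-05), and 1.45 and 3.51 CPM for ugt-57 (log2 −1.30, SE 0.22, adjusted p = 2.87e-06). The exons of ugt-57 overlap the noncoding RNA F01E11.8 on the other strand. ugt-59 was lower in 14 of 17 sorts, with 3 of the 6 lin-4p::GFP sorts going the other way (log2 −1.19, SE 0.24, adjusted p = 5.04e-05), and its call was lost with the sort as a block (adjusted p = 0.000365), with library totals (0.000115), with no count filter (0.000112) and in 12 of the 34 leave-one-out fits, which each lacked 1 library. Of the 8 ugt genes called lower, 7 were lower in every sort. Over all 59 ugt genes, called or not, 7 (11.9%) were lower in every sort, where 15.6% of all genes were.

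The ugt genes with the highest levels after ugt-29 were ugt-4 (WBGene00013905, chromosome V, 12793014 to 12795336) and ugt-58. ugt-4, the immediate neighbour of ugt-6, was at 55.1 CPM (median, 31.9 to 75.4) in long-lived and 26.6 CPM (17.6 to 45.3) in short-lived libraries, a 1.99-fold difference (log2 1.00, SE 0.12, edgeR adjusted p = 6.98e-09). ugt-58 had medians of 35.6 and 41.9 CPM with overlapping ranges (log2 −0.20, SE 0.06, adjusted p = 0.00594) and passed 0.05 but not 0.0001. Over both directions, the level per length of the genes called lower (median 6.79 CPM per kb) was above that of the genes called higher (3.39) and of those not called (1.57). The summed level of all 59 ugt genes was 373 to 852 CPM in the long-lived and 368 to 694 CPM in the short-lived libraries, ranges that overlap almost wholly, while individual members rose and fell.

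The gst family was dominated by a few genes. gst-1, of the pi class, and gst-7 had 203 and 196 CPM per kb, gst-24 had 33.2 CPM per kb, and these 3 held 67.5% of the summed level per length of the 36 genes, against 24% for the top 3 ugt genes. gst-1 (WBGene00001749, chromosome III, 9059331 to 9060181) was at 166 CPM (median, 133 to 214) in long-lived and 139 CPM (105 to 172) in short-lived libraries, higher in 16 of 17 sorts but with wide overlap. Its difference of 1.25-fold was small and called (log2 0.32, SE 0.07, edgeR adjusted p = 7.18e-05), and 20 of the 34 leave-one-out fits lost the call, with an adjusted p of up to 0.000176. gst-7 had medians of 156 and 128 CPM (log2 0.25, SE 0.10, adjusted p = 0.0334) and was not called, but it passed without lin-4p::GFP sorts 1 and 2 (adjusted p = 8.75e-05). The summed level of the gst genes was 404 to 720 CPM in long-lived and 353 to 602 CPM in short-lived libraries, and the group means were higher in the long-lived group of each biomarker (518 ± 9.33 against 450.2 ± 21.6 CPM in autofluorescence, SD, n = 3).

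**Figure D3:**
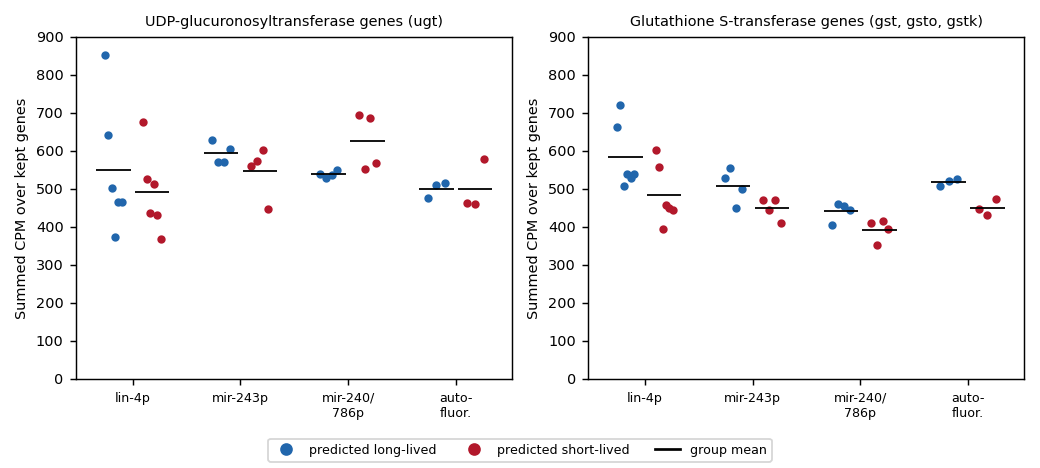
Summed CPM of the 59 ugt genes (left) and the 36 gst, gsto and gstk genes (right) in each library, by biomarker, with group means as lines. For the gst genes the long-lived means exceed the short-lived means in each biomarker (440.8 against 393 CPM in mir-240/786p::GFP), and for the ugt genes the short-lived mean is the higher in mir-240/786p::GFP and the means of autofluorescence are alike.

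The gst genes that rose most were gst-26, gst-27, gsto-1, gst-6, gst-4 and gst-13. gst-27 (WBGene00001775, chromosome II, 15164890 to 15165731) was at 5.66 to 14.5 CPM in all long-lived and 0.345 to 5.58 CPM in all short-lived libraries, the single gst gene whose 17 and 17 libraries were apart. The distance between the classes was narrow, since lin-4p::GFP low sort 4 (5.58 CPM) lay next to mir-240/786p::GFP low sort 1 (5.66 CPM). The pooled difference was 3.28-fold (log2 1.71, SE 0.23, edgeR adjusted p = 5.02e-08). gst-26, its neighbour in an array of gst genes, had medians of 2.13 and 0.648 CPM and rose 3.41-fold (log2 1.77, SE 0.24, adjusted p = 8.46e-08).

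gst-6 (WBGene00001754, chromosome II, 4879891 to 4881105) gave the smallest p of the family. It was at 3.77, 4.97 and 5.94 CPM (lowest, median, highest of 6) in lin-4p::GFP high and 1.20, 1.84 and 2.68 CPM in low libraries. In mir-243p::GFP it was at 5.56, 5.12, 4.49 and 5.63 CPM in high and 1.40, 1.05, 2.79 and 1.68 CPM in low libraries. In autofluorescence it was at 3.48, 2.54 and 2.44 CPM in low and 1.07, 0.884 and 1.03 CPM in high libraries. No biomarker had overlapping groups, and the pooled difference was 2.91-fold (log2 1.54, SE 0.14, edgeR adjusted p = 2.45e-11).

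gst-4 (WBGene00001752, chromosome IV, 10142225 to 10143099), the SKN-1 reporter gene, was at 21.8 and 27.4 CPM in lin-4p::GFP high sorts 1 and 2 and at 3.58 to 5.99 CPM in high sorts 3 to 6, against 1.86 to 8.69 CPM in the low libraries. In mir-240/786p::GFP it was at 10.8, 15.4, 10.1 and 6.85 CPM in low and 4.25, 2.00, 2.56 and 2.46 CPM in high libraries. The groups overlapped in lin-4p::GFP and were apart in the other biomarkers, and the pooled difference was 2.65-fold (log2 1.40, SE 0.26, edgeR adjusted p = 1.43e-05). Exons of gst-4 overlap dhs-12 on the same strand, so the reads of the 2 genes could have been divided in more than 1 way. RNA of skn-1 itself was lower in long-lived libraries in 17 of 17 sorts, with a mean of 224 against 280 CPM (log2 −0.32, SE 0.07, adjusted p = 0.000120), a difference that passed 0.05 but not 0.0001.

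gsto-1, an omega class enzyme of the intestine that protects against oxidative stress, was higher in 16 of 17 sorts, with medians of 2.09 and 0.716 CPM (log2 1.61, SE 0.22, edgeR adjusted p = 1.09e-07). Its largest gap was in mir-240/786p::GFP, at 4.2, 4.04, 3.62 and 1.92 CPM in low and 0.574, 0.363, 0.295 and 0.716 CPM in high libraries, and its exons overlap kle-2 on the other strand. The other omega member kept, gsto-3, had medians of 16 and 16.7 CPM (log2 −0.03, SE 0.10, adjusted p = 0.814), and its sign turned with no count filter (0.01).

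gst-10 (WBGene00001758, chromosome V, 2561690 to 2564645), whose enzyme conjugates a product of lipid peroxidation, was at 7.09, 15.7 and 19.5 CPM (lowest, median, highest of 6) in lin-4p::GFP high and 2.27, 3.17 and 9.35 CPM in low libraries. In autofluorescence it was at 9.52, 8.62 and 6.63 CPM in low and 3.43, 1.65 and 1.93 CPM in high libraries. It rose 2.50-fold in predicted long-lived animals (log2 1.32, SE 0.20, edgeR adjusted p = 5.29e-07), and the groups overlapped in lin-4p::GFP, through low sort 4, and in mir-240/786p::GFP. gst-13 rose to a like degree (log2 1.35, SE 0.19, adjusted p = 1.81e-07), and gst-36 (log2 1.00, SE 0.12, adjusted p = 1.15e-08) and gst-44 (log2 0.85, SE 0.12, adjusted p = 3.93e-07) rose less. Exons of gst-36 overlap scav-5 on the other strand.

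The gst genes that fell were gst-31, gst-24 and gstk-2. gst-24 (WBGene00001772, chromosome II, 13610443 to 13611366, minus strand) was at 5.63, 12.2 and 24.1 CPM (lowest, median, highest of 6) in lin-4p::GFP high and 12.1, 17.1 and 60.1 CPM in low libraries. In mir-240/786p::GFP it was at 11.1, 13, 13.3 and 11.2 CPM in low and 53.7, 44.6, 65.4 and 40.6 CPM in high libraries. All 17 sorts had less gst-24 RNA in their long-lived library (2.30-fold higher in short-lived animals, log2 −1.20, SE 0.21, edgeR adjusted p = 4.62e-06), and the overlap in lin-4p::GFP was between sorts 1 to 3 of high and sorts 3 to 6 of low.

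gst-31 was near the floor, at 0.049 to 0.579 CPM in long-lived and 0.205 to 3.61 CPM in short-lived libraries (log2 −1.59, SE 0.33, edgeR adjusted p = 7.41e-05), and 20 of the 34 leave-one-out fits lost the call, as did the block (adjusted p = 0.000106), library totals (0.000142), no count filter (0.000164) and leaving out lin-4p::GFP sorts 1 and 2 (0.000116). gstk-2, of the kappa class of mitochondria and peroxisomes, had medians of 2.38 and 4.06 CPM (log2 −0.63, SE 0.12, adjusted p = 2.75e-05), and its call was lost with library totals (adjusted p = 0.000238) and with no count filter (0.000113).

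The members of the gst list that were not called included gst-42, the zeta class enzyme that works as maleylacetoacetate isomerase in tyrosine breakdown, with medians of 3.76 and 6.72 CPM (log2 −0.62, SE 0.19, edgeR adjusted p = 0.00515). gst-5 had medians of 8.36 and 15.6 CPM (log2 −0.83, SE 0.19, adjusted p = 0.000325) and was called with DESeq2 (adjusted p = 2.98e-05) and without lin-4p::GFP sorts 1 and 2 (1.82e-05). gst-30 (log2 0.62, adjusted p = 0.00823), gst-43 (log2 0.29, adjusted p = 0.00226) and gst-38 (log2 −0.43, adjusted p = 0.128) were not called either. gst-14 and gsto-2 did not have enough counts to be tested.

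The difference within each biomarker was then tested in a model with 8 group means, fitted to all 34 libraries with a shared estimate of the spread. For lin-4p::GFP, 6 ugt genes were called, ugt-1, ugt-6, ugt-12 and ugt-22 higher and ugt-29 and ugt-48 lower, which is 10.2% of the family where 14.2% of all genes were called (4.4% higher, 9.81% lower). Of the gst genes 5 were called and all were higher, gst-6, gst-10, gst-26, gst-36 and gstk-1 (13.9%). The median log2 fold change was 0.49 for ugt and 0.19 for gst genes. At an adjusted p under 0.05, 32 ugt genes (23 higher, 9 lower) and 21 gst genes (15 higher, 6 lower) passed, where 50.3% of all genes did. The high and low libraries were apart for 4 ugt (6.78%) and 5 gst genes (13.9%), where 17% of all genes were. With the sort as a block 12 ugt genes (7 higher, 5 lower) were called, where 19% of all genes were, but ugt-22 was not among them (adjusted p = 0.000171). Of the 5 gst genes, gst-6 (0.000136), gst-26 (0.000110) and gst-36 (0.000110) lost the call under the block, while gst-43 (1.99e-05, higher) and gst-24 (3.49e-05, lower, log2 −0.93) gained it. Without sorts 1 and 2 no gst gene was called by edgeR, where 7.48% of all genes were and each lin-4p::GFP group had 4 libraries. DESeq2 on all libraries called 8, where 22.3% of all genes were called. In an edgeR fit to the lin-4p::GFP libraries alone no ugt or gst gene was called, and the share of all genes called in that fit was not computed.

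For mir-240/786p::GFP, 15 ugt genes were called, the most of any biomarker, which is 25.4% of the family where 15.1% of all genes were called (6.46% higher, 8.63% lower). The 9 that rose were ugt-1, ugt-4, ugt-5, ugt-6, ugt-12, ugt-22, ugt-30, ugt-43 and ugt-44, and the 6 that fell were ugt-24, ugt-28, ugt-29, ugt-39, ugt-48 and ugt-59. Only gsto-1 and gst-6 were called among the gst genes (5.56%), and 5 were with the sort as a block, where 23.5% of all genes were. At an adjusted p under 0.05, 39 ugt genes (24 higher, 15 lower) and 18 gst genes (11 higher, 7 lower) passed, where 51.2% of all genes did. With the block 20 ugt genes were called, without ugt-12 (adjusted p = 0.000129) and ugt-30 (0.000105), and of the 5 gst genes gst-5 and gst-24 were lower. The count of ugt genes was 9 with library totals and fell to 7 without high sort 1 of this biomarker. The share of all genes called in these fits was not computed. The 4 long-lived and 4 short-lived libraries were apart for 38 ugt (64.4%) and 20 gst genes (55.6%), where 56.7% of all genes were apart.

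For mir-243p::GFP no ugt or gst gene was called by edgeR at 0.0001, where 0.814% of all genes were (0.505% higher, 0.309% lower), and 7 ugt and 2 gst genes were called by DESeq2, where 5.06% were. At an unadjusted p under 0.05 there were 28 ugt and 12 gst genes (35.9% of all genes), and at an adjusted p under 0.05 there were 22 ugt (16 higher, 6 lower, 37.3%) and 6 gst genes (5 higher, 1 lower, 16.7%), where 23.6% of all genes passed (10.6% higher, 13% lower). With the sort as a block 4 ugt genes were called (2.98% of all genes), and without lin-4p::GFP sorts 1 and 2 the count was 8 (4.41% of all genes). The libraries were apart for 30 ugt (50.8%) and 17 gst genes (47.2%), where 31.5% of all genes were, and the median log2 fold change was 0.43 for ugt and −0.02 for gst genes.

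For autofluorescence, with 3 libraries a group, ugt-6 rose and ugt-29 fell (3.39% of the family where 7.18% of all genes were called, 2.03% higher and 5.15% lower), and no gst gene was called by edgeR while 1 was by DESeq2, where 14.4% of all genes were. At an unadjusted p under 0.05 there were 18 gst genes (50.8% of all genes), and 27 ugt (21 higher, 6 lower) and 15 gst genes (12 higher, 3 lower) passed an adjusted p of 0.05, where 43% of all genes did (21.3% higher, 21.7% lower). The low and high libraries were apart for 41 ugt (69.5%) and 21 gst genes (58.3%), where 64.9% of all genes were. With the sort as a block 7 ugt genes and 1 gst gene were called, where 15.1% of all genes were, and without lin-4p::GFP sorts 1 and 2 the ugt count was 10 (16.9% of all genes). No ugt gene was called with library totals, without high sort 3 or in a fit to the autofluorescence libraries alone. The share of all genes called in these fits was not computed.

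**Figure D4:**
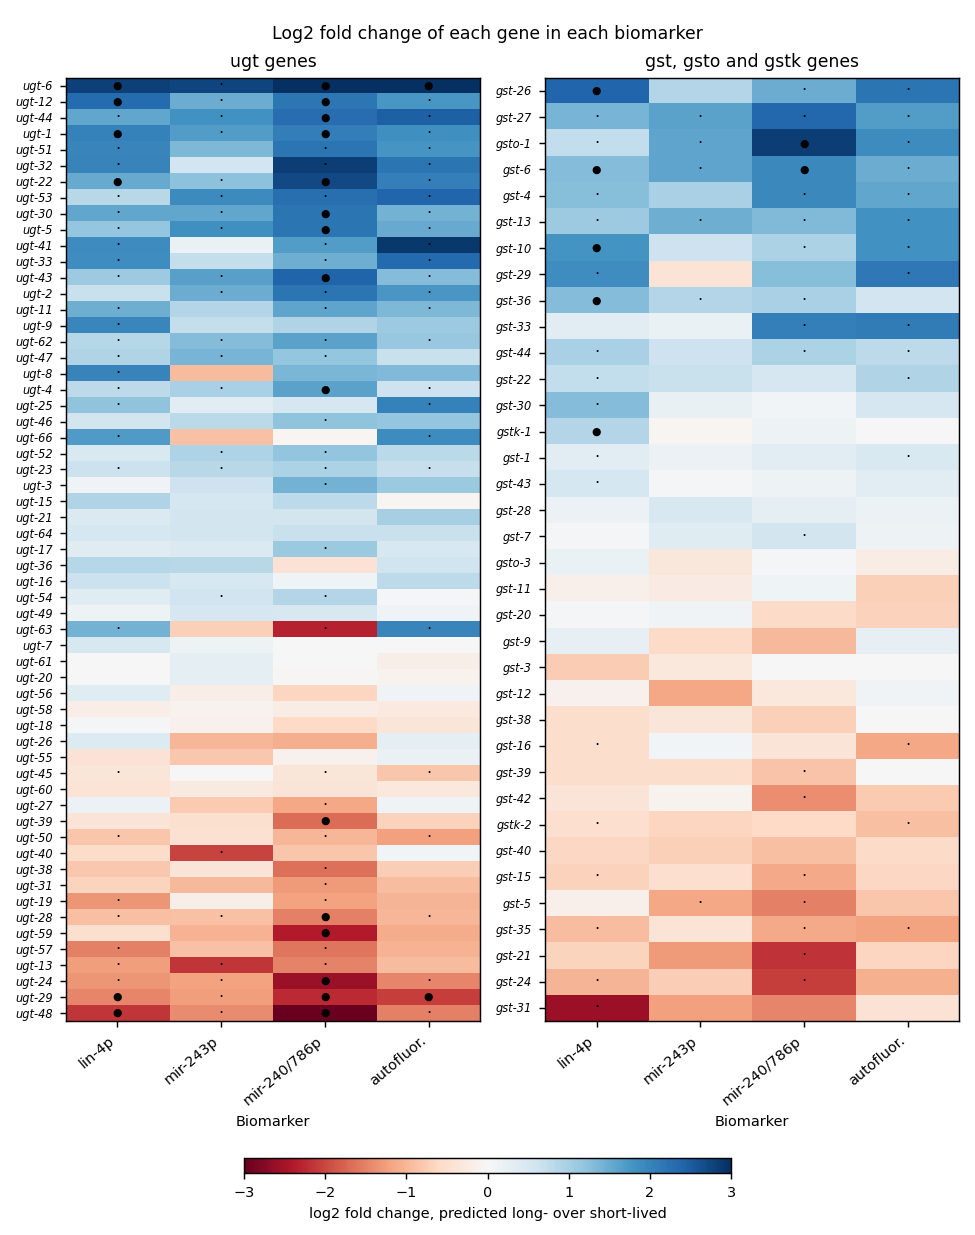
Log2 fold change (predicted long-lived over short-lived) of each ugt gene (left) and gst, gsto and gstk gene (right) in each biomarker, ordered by the pooled value, with a large dot at an adjusted p under 0.0001 and a small dot under 0.05. Colours saturate at 3 in either direction, and 44 ugt and 26 gst genes keep one sign across the row.

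All 4 biomarkers gave one sign to 44 of 59 ugt genes (74.6%, 30 higher and 14 lower) and to 26 of 36 gst genes (72.2%, 16 higher and 10 lower), and to 70.2% of all genes. In the test of whether the difference varied with the biomarker, gstk-1 was the single member to pass an adjusted p of 0.05 (edgeR, 3 degrees of freedom, adjusted p = 0.0435), where 1.74% of all genes passed. gstk-1 (WBGene00014251, chromosome II, 9656705 to 9657719) was at 22.6, 33.6 and 39.5 CPM (lowest, median, highest of 6) in lin-4p::GFP high and 13.9, 17 and 24.1 CPM in low libraries. In mir-243p::GFP it was at 22.2, 23.4, 17.5 and 22.4 CPM in high and 22.9, 20.8, 22.6 and 22.9 CPM in low libraries, without a visible gap. In lin-4p::GFP the log2 fold change was 0.88 (SE 0.15), whereas it was −0.06 (SE 0.18) in mir-243p::GFP, 0.16 (SE 0.18) in mir-240/786p::GFP and −0.02 (SE 0.21) in autofluorescence.

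No ugt gene passed this test in edgeR, with 15 at an unadjusted p under 0.05 (18.1% of all genes) and 2 called by DESeq2 (7.06% of all genes). Of the gst genes, 22 of the 34 leave-one-out fits lost gstk-1 (adjusted p of up to 0.0799), and without lin-4p::GFP sorts 1 and 2 its adjusted p was 0.123. It was 0.0578 with no count filter and 0.1 with library totals. With the sort as a block 8 ugt genes (ugt-4, ugt-24, ugt-29, ugt-39, ugt-45, ugt-48, ugt-59 and ugt-63) and 6 gst genes (gstk-1, gsto-1, gst-5, gst-7, gst-24 and gst-43) passed, where 16% of all genes did. Without lin-4p::GFP sorts 1 and 2, 11 ugt and 3 gst genes passed, where 14.5% of all genes did.

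Members are unevenly spread over the genome, with 35 of the 59 ugt genes on chromosome V and 19 of the 36 gst genes on chromosome II (WBcel235). Where family members lie within 10 kb of one another they were described as an array, without reference to their values, which placed 31 ugt and 17 gst genes in arrays. In the array of ugt-5, ugt-4, ugt-6 and ugt-3 on chromosome V (12790676 to 12800271) the pooled log2 fold changes were 1.62, 1.00, 3.17 and 0.70, and the first 3 were called. In the array that starts with ugt-12 (chromosome V, 4887165 to 4911399) they were 1.98 for ugt-12, 1.34 for ugt-11, 1.25 for ugt-9, 1.00 for ugt-8 and −1.47 for ugt-13, of which ugt-12 and ugt-11 were called higher and ugt-13, at the far end, lower. With the sort as a block ugt-9 was called too (adjusted p = 5.76e-05). Both ugt-1 and ugt-2 were called higher in their array (1.91 and 1.41), as were ugt-43 and ugt-44.

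On chromosome II (15163817 to 15185389) an array of gst genes held gst-26 (1.77), gst-27 (1.71), gst-28 (0.27), gst-29 (1.23), gst-39 (−0.50), gst-31 (−1.59) and gst-35 (−0.90), in this order. The 2 called genes that rose lie at one end, and gst-31, the called gene that fell, lies toward the other. gst-6 (1.54) and gst-7 (0.25) are adjacent, and of these only gst-6 was called. How reads matching several genes were counted is not given in the sources used here, so values of neighbouring family members are uncertain to that extent.

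**Figure D5:**
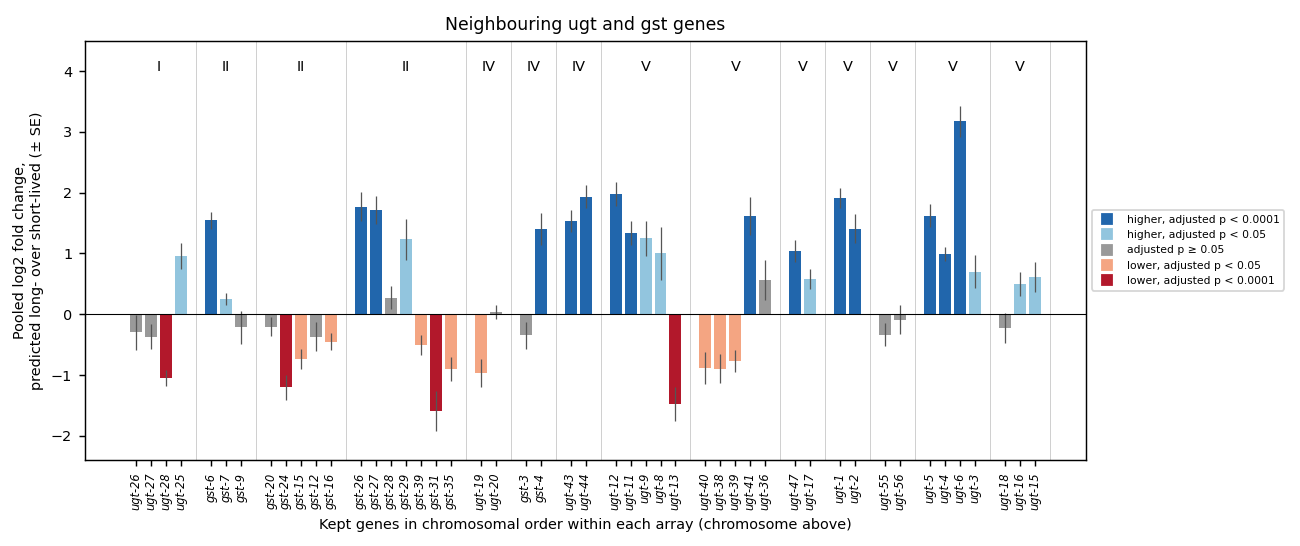
Pooled log2 fold change with standard error of the kept ugt and gst genes that lie within 10 kb of another family member, in chromosomal order within each array, with the chromosome given above. Values within an array range from like size and sign (ugt-1 and ugt-2, 1.91 and 1.41) to opposite sign (ugt-12 and ugt-13, 1.98 and −1.47).

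Genes of UDP-glucuronate and glutathione metabolism were described beside the 2 families, and a link between these genes and the family members was not tested. Of UDP-glucuronate synthesis, transport and use, 3 genes were tested and rose: sqv-4, the UDP-glucose dehydrogenase that makes UDP-glucuronate, had means of 193 and 120 CPM in long-lived and short-lived libraries (log2 0.71, SE 0.07, edgeR adjusted p = 5.10e-10), the transporter gene sqv-7 had 90.5 and 62.3 CPM (log2 0.55, SE 0.05, adjusted p = 1.83e-10), and sqv-1, whose enzyme turns UDP-glucuronate into UDP-xylose, had 140 and 102 CPM (log2 0.46, SE 0.07, adjusted p = 3.39e-07). Each was higher in 17 of 17 sorts. Of 7 genes of glutathione supply 2 rose and 1 fell. The glutathione synthetase gene gss-1 rose slightly (log2 0.35, SE 0.06, adjusted p = 1.79e-06) and cth-2, a cystathionine gamma-lyase gene, rose more (log2 0.65, SE 0.10, adjusted p = 6.08e-07). The gene that fell was cbs-2, a cystathionine beta-synthase gene with the largest change of the list (log2 −1.47, SE 0.15, adjusted p = 3.35e-10), lower in 17 of 17 sorts. gcs-1, for the first and limiting enzyme of glutathione synthesis, was at 143 and 145 CPM (log2 −0.02, SE 0.04, adjusted p = 0.656).

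Of 13 other users and reducers of glutathione or thioredoxin 2 rose and 3 fell, with a median log2 fold change of 0.08. Over all genes 19% rose and 21.6% fell. Of 87 first-phase genes (cyp, fmo and dhs) 31 rose and 18 fell, with a median of 0.31, against 0.58 for the ugt and 0.11 for the gst genes. Of 22 exporter genes (the P-glycoprotein genes pgp and the multidrug resistance protein genes mrp) 3 rose and 9 fell, with a median of −0.29. mrp-3 (log2 1.72, SE 0.15, adjusted p = 1.81e-11) and pgp-3 (log2 1.17, SE 0.14, adjusted p = 1.31e-08) rose, while mrp-2 (log2 −2.29, SE 0.16, adjusted p = 1.02e-13) and pgp-7 (log2 −2.30, SE 0.21, adjusted p = 2.09e-11) fell.

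Of 15 regulators of detoxification and stress responses 2 rose and 4 fell, a share called close to the 40.6% of all genes. The nuclear receptor genes nhr-176 (log2 1.29, SE 0.14, edgeR adjusted p = 7.30e-10) and nhr-8 (log2 0.58, SE 0.12, adjusted p = 3.94e-05), both of xenobiotic responses, rose. The nuclear receptor gene nhr-48 fell (log2 −0.48, SE 0.07, adjusted p = 7.84e-07), and nhr-86 was not called (log2 0.07, SE 0.07, adjusted p = 0.400). aha-1, the partner of the aryl hydrocarbon receptor (log2 −0.47, SE 0.07, adjusted p = 1.55e-06), and hif-1, the hypoxia-inducible factor gene (log2 −0.30, SE 0.06, adjusted p = 9.72e-05), fell as well. The last gene that fell was pmk-1, which encodes a p38 MAP kinase that acts upstream of SKN-1, with a mean of 70.3 CPM in short-lived and 34.5 CPM in long-lived libraries (log2 −1.02, SE 0.08, adjusted p = 3.89e-12).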

How the data were processed

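RNA of pooled whole animals was sequenced in 34 libraries. The authors deposited raw counts per gene, with no normalization (20223 features). The submitters' processing notes name STAR 2.7.3a, featureCounts and build WBcel235, while the annotation release, strand and multimapping settings are not given in the sources used here. Genes with at least 5 counts in 26 of 34 libraries (75%) were kept. The gfp transgene counted toward library size but was not among the genes tested. Scaling was by TMM, with a prior count of 2 in log2 CPM. Differences were tested with edgeR 4.0.16 (R 4.3.3, quasi-likelihood F test, Benjamini-Hochberg adjustment over 14245 genes), with the biomarker as an additive term (pooled), with 8 group means (each biomarker) and for the interaction. A gene was called at an adjusted p under 0.0001 (0.05 for the interaction). Standard errors were taken from the log2 fold change and its F statistic. No batch term was fitted: the study modelled one, but its levels are absent from the labels.

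The members and gene lists were chosen with earlier results of these data known. The named genes were, per family, the 6 called genes with the largest change in each direction, the 3 with the highest CPM per kb, up to 5 passing the interaction test, and a list of 19 gst, gsto, gstk and ugt genes. Genes named for a single biomarker, an array or a pathway list were chosen after their values were seen. Positions and exonic lengths came from Ensembl release 115 (WBcel235), with overlaps of at least 50 bp noted. Sequences were not used here.

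Per the labels, a sort gives a high and a low library, so the sort number was taken as a pairing and a fit with the sort as a block was run. Deviations from the group means correlated within a sort from −0.07 to 0.57, over 0.1 in 11 of 17. No pair of libraries of a group agreed within counting noise (chi-square of 10.4 to 270.0 per degree of freedom). The labels do not say that sorts came from separate cultures, so p-values measure the spread between sorts, which may be technical. Floors cover counting error only. The tests were tried on simulated data, and alternatives were DESeq2 1.42.0 and its size factors, library totals, no filter, the block, leaving out libraries, and each biomarker's own libraries.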

Additional observations from a re-analysis of the deposited data

Results flagged for a closer look

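Over the named genes and the summed level of each family, 228 groups of 4 to 6 libraries were checked for a library far from the rest of its group. In all 16 were found, each for a named gene, where chance gives about 1 in 20. Of these, 9 were in lin-4p::GFP. In lin-4p::GFP high, sort 1 stood out for ugt-6 (15.7 CPM, the others 1.65 to 6.74) and ugt-29 (52.7 CPM, the others 14 to 27.6), sort 2 for ugt-59 (1.74 CPM), and sort 3 for ugt-58 (42 CPM) and gst-27 (14.5 CPM). In lin-4p::GFP low, sort 1 stood out for ugt-13 (8.58 CPM) and gst-31 (3.61 CPM, the others 0.301 to 1.24), sort 3 for ugt-32 (0.885 CPM) and sort 4 for gst-10 (9.35 CPM, the others 2.27 to 3.73).

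In mir-243p::GFP high, sort 1 stood out for ugt-44 (29.6 CPM), gst-13 (14.5 CPM) and gstk-2 (2.66 CPM), sort 2 for gst-27 (10.3 CPM, 10.35 before rounding) and sort 4 for ugt-59 (1.42 CPM). In mir-243p::GFP low, sort 3 stood out for ugt-44 (10.2 CPM) and sort 2 for gstk-1 (20.8 CPM).

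For gstk-1 the test of whether the difference varied with the biomarker was passed (edgeR interaction test, adjusted p = 0.0435, 0.0151 with the sort as a block), where 1.74% of all genes passed. In lin-4p::GFP the high library was the higher in 6 of 6 sorts. The interaction was lost without lin-4p::GFP sorts 1 and 2 (adjusted p = 0.1225), with library totals (0.09998) and with no count filter (0.0578). It was also lost in 22 of the 34 leave-one-out fits. For 3 members every sort of one biomarker moved one way and every sort of another the opposite way, and these differences between single biomarkers were not tested. The share of all genes that did so was not computed, so this count cannot be set against all genes. The log2 fold changes were 0.24 in autofluorescence, −0.57 in mir-243p::GFP and −0.96 in mir-240/786p::GFP for gst-9, and 0.28 in autofluorescence and −1.10 in mir-240/786p::GFP for ugt-26. For ugt-63, near the floor, they were 1.98 in autofluorescence and −2.32 in mir-240/786p::GFP. Their interaction tests over all biomarkers gave adjusted p-values of 0.645 for gst-9, 0.359 for ugt-26 and 0.0531 for ugt-63, which passed with the sort as a block (0.0107).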

How the results depend on the processing

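Of 36 named genes, 28 kept their direction and their side of the threshold in the pooled test under all 40 alternatives. The direction held for all 36 except gsto-3 (log2 −0.03), which was 0.01255 with no count filter and ranged from −0.0642 to 0.0107 when 1 library was left out, the highest without mir-243p::GFP high replicate 4. At 0.05 in place of 0.0001 the calls were 47 ugt and 28 gst genes pooled, 39 and 18 in mir-240/786p::GFP, 32 and 21 in lin-4p::GFP, 27 and 15 in autofluorescence, and 22 and 6 in mir-243p::GFP. No gst gene passed the interaction test at 0.0001. DESeq2 gave 13 ugt and 8 gst genes for lin-4p::GFP, 7 and 2 for mir-243p::GFP, 5 gst genes for mir-240/786p::GFP, 9 and 1 for autofluorescence, and 2 and 2 for the interaction, where it called 22.3%, 5.06%, 23.6%, 14.4% and 7.06% of all genes in the same order. With the sort as a replicate block the counts were 12 ugt genes for lin-4p::GFP, 4 ugt genes for mir-243p::GFP, 5 gst genes for mir-240/786p::GFP, 7 ugt genes and 1 gst gene for autofluorescence, and 8 and 6 for the interaction, and no other count moved by over 1.5 times. Without lin-4p::GFP sorts 1 and 2 they were 0 gst genes for lin-4p::GFP, 8 and 1 for mir-243p::GFP, 7 gst genes for mir-240/786p::GFP, 10 and 1 for autofluorescence, and 11 and 3 for the interaction, where 7.48%, 4.41%, 26%, 16.9% and 14.5% of all genes passed in the same order. Library totals gave 9 ugt genes for mir-240/786p::GFP, 0 ugt genes for autofluorescence and 0 gst genes for the interaction, which was also 0 with no count filter, and DESeq2 size factors gave 1 ugt gene for the interaction. On the libraries of 1 biomarker, 0 ugt and 0 gst genes were called for lin-4p::GFP, 0 ugt genes for autofluorescence and 4 gst genes for mir-240/786p::GFP. Shares of all genes called were not computed for library totals, no count filter, DESeq2 size factors, the libraries of 1 biomarker or leaving out 1 library. Those counts therefore cannot be set against all genes. The cause of these changes was not tested. Leaving out 1 library at a time, the ugt and gst counts were 26 to 30 and 11 to 15 pooled, 4 to 9 and 4 to 5 for lin-4p::GFP, 0 to 1 and 0 to 1 for mir-243p::GFP, 7 to 17 and 2 to 4 for mir-240/786p::GFP, 0 to 4 and 0 to 0 for autofluorescence, and 0 to 2 and 0 to 2 for the interaction. The mean log2 TMM factor differed between long-lived and short-lived libraries by −0.04 at most (lin-4p::GFP, where factors ranged from 0.783 to 1.18). This is a mean over libraries and not the change of single genes under library totals. Members under 1 CPM, 8 in each family, have the least precise values.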
